A study of Mus musculus with 6 samples.

Results

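The thrombospondins are a family of secreted glycoproteins of the extracellular matrix, and Cd47 is the cell surface receptor that binds thrombospondin 1. Their transcripts were read from RNA-Seq counts of cultured sympathetic neurons of Slit2fl/fl and Slit2th mice. The 5 thrombospondin genes (Thbs1, Thbs2, Thbs3, Thbs4 and Comp, which encodes thrombospondin 5) and Cd47 were taken by gene symbol, and all 6 were present among the 20173 genes counted. SLIT2 is a secreted axon guidance cue, and the comparison of genotypes addresses which secreted factors change in neurons when Slit2 is deleted. Both groups carried floxed Slit2 alleles. The 3 Slit2th libraries (genotype label SLIT2-knockout) came from mice that delete Slit2 through Cre driven by the promoter of Th, the tyrosine hydroxylase gene, and the 3 Slit2fl/fl libraries (genotype label SLIT2f/f), called controls here, from floxed mice. The neurons came from male mice aged 3 weeks and were kept in culture for 4 to 5 days. The labels give sympathetic ganglion as the tissue and neuron as the cell type, and the RNA-Seq method of the study names sympathetic chains. The isolation method to which it refers, headed as sympathetic neuron extraction, speaks of dorsal root neurons. The sources used here do not say whether each library came from a separate mouse or culture, so p-values measure the spread between libraries, which may be technical.

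Thrombospondins fall into 2 structural groups. Thbs1 and Thbs2 assemble as trimers and carry type 1 repeats, the modules that bind Cd36 and, in thrombospondin 1, activate latent TGF-beta, whereas Thbs3, Thbs4 and Comp assemble as pentamers and lack these repeats. Thrombospondins released by glia induce synapse formation through the calcium channel subunit alpha2delta-1, Thbs4 is known from injured nerve and tendon, and Comp is a protein of cartilage and tendon. Cd47 binds the carboxy-terminal domain of thrombospondin 1, and on the surface of a cell it is also the ligand of Sirpa, which restrains phagocytosis.

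Total counts were 1533367 to 3155406 in controls and 1255939 to 1999485 in Slit2th. A floor of 3 counts corresponded to 0.961 to 2.65 CPM (counts relative to the library total, scaled by TMM), and floors and intervals cover counting error only. Slit2 counts were 139, 85 and 77 in control replicates 1 to 3 and 17, 24 and 27 in Slit2th replicates 1 to 3, so each library matched its label. Replicate 1 stood apart in both groups. Its log2 CPM correlated with those of the other libraries of its group at 0.842 to 0.869, against 0.938 and 0.965 between replicates 2 and 3. Th was at 0 counts in all 6 libraries and Slc6a2, the noradrenaline transporter, had at most 1 count, so these defining sympathetic markers were absent or nearly so. The sympathetic neuron list summed to 167.9 to 574.1 CPM in controls and 185.1 to 191.3 CPM in Slit2th. Most of this came from Tubb3, Uchl1 and Stmn2, which neurons in general express. Phox2a, Gata3, Ddc, Npy, Snap25, Prph and Elavl4 had at most 3 counts in any library. Slc18a2 stood at 4.48 to 11.9 CPM in controls and 13.2 to 17.5 CPM in Slit2th. The Schwann cell and glial gene S100b stood at 1233 to 2577 CPM in controls and 962.3 to 1859 CPM in Slit2th. In such bulk libraries, fewer cells of a type and less RNA per cell cannot be told apart.

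Of the 6 genes, 4 passed the filter of at least 1 CPM in at least 3 libraries and were tested among 12152 genes, whereas Thbs3 and Comp did not pass. All 4 had positive log2 fold changes (Slit2th over Slit2fl/fl), with a median of 0.53, beside 5804 of 12152 tested genes with positive values and a median of -0.047. By edgeR's quasi-likelihood test, 0 of the 4 had a Benjamini-Hochberg adjusted p under 0.05, as did 0.0% of all tested genes. At an unadjusted p under 0.05, 1 of the 4 (Thbs1) was higher in Slit2th, against a background of 3.99% of tested genes higher and 10.8% in either direction. The groups did not overlap, with Slit2th higher, for 1 of the 4 (Thbs1), against 8.74% of tested genes.

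**Figure D1:**
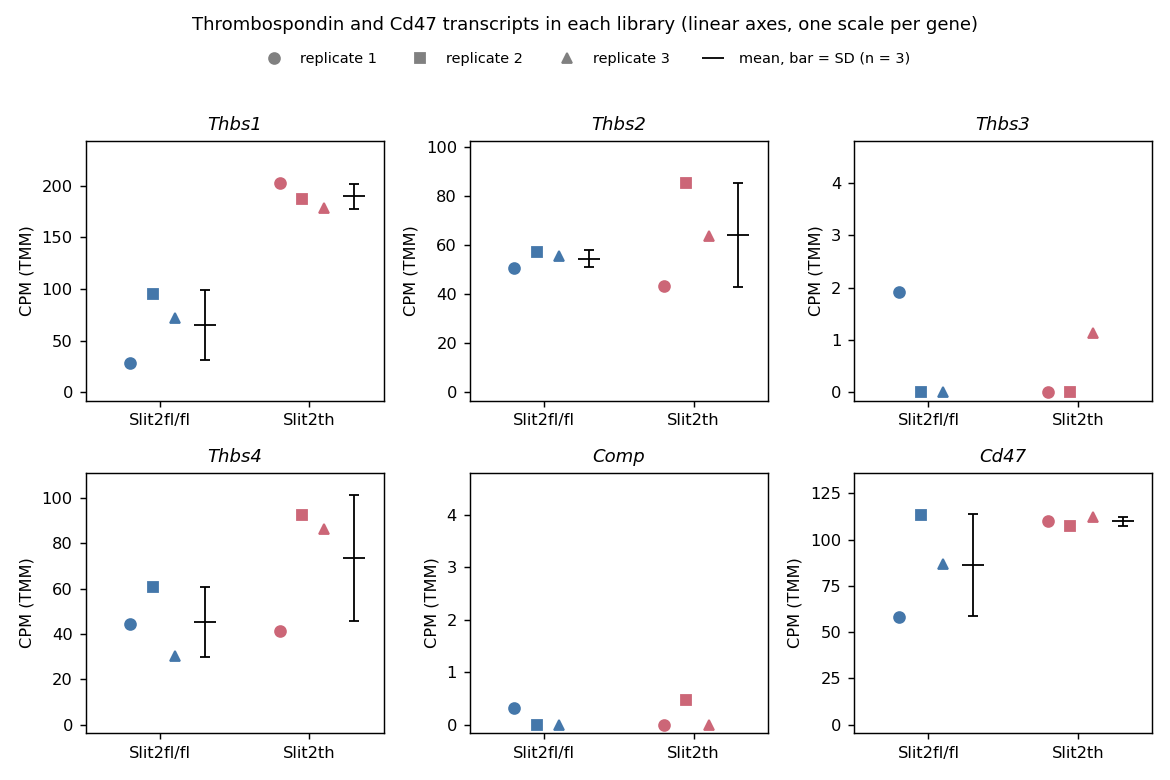
CPM (TMM-scaled, vertical axes linear with a scale for each gene) of the 6 genes in Slit2fl/fl and Slit2th libraries, with a marker shape for each replicate. Black bars give the mean ± SD (n = 3) and are not drawn for Thbs3 and Comp. The 3 Slit2th libraries lie above the 3 Slit2fl/fl libraries for Thbs1, while the groups overlap for Thbs2, Thbs4 and Cd47.

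Thbs1 (ENSMUSG00000040152) encodes thrombospondin 1, a matricellular protein that binds Cd47, Cd36 and integrins. In GENCODE M21 on GRCm38 it lies on the plus strand of chromosome 2, from 118111876 to 118127133, with 22 merged exons of 6073 bases in all. It had 90, 147 and 126 counts in control replicates 1 to 3 and 230, 393 and 317 in Slit2th replicates 1 to 3. These correspond to 28.8, 95.3 and 71.6 CPM in controls and 203.0, 187.5 and 178.9 CPM in Slit2th. The groups did not overlap. The Slit2th libraries lay close together, whereas Slit2fl/fl replicate 1 lay well below the other two controls.

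The mean Thbs1 level was 65.2 ± 33.7 CPM in controls and 189.8 ± 12.2 CPM in Slit2th (SD, n = 3 each), a ratio of 2.91. On the log2 scale Thbs1 lay 1.54 higher in Slit2th (standard error 0.45, 95% interval 0.53 to 2.56), with adjusted p = 0.422 (unadjusted p = 0.00728) by edgeR's quasi-likelihood test with Benjamini-Hochberg adjustment. Thus the Thbs1 difference did not pass the threshold over all tested genes. By unadjusted p it ranked at position 174 of 12152 genes, and by size of rise at position 459. A two-sided exact permutation test of log2 CPM gave p = 0.10, the smallest that 3 libraries against 3 allow. Thbs1 was chosen with earlier results of these libraries known, so its direction here is not independent evidence.

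The Thbs1 estimate depended on replicate 1. Without Slit2fl/fl replicate 1 the log2 fold change was 1.18 (adjusted p = 0.639 in the edgeR fit). With replicate 1 of each group left out it was 1.12 (standard error 0.22, adjusted p = 0.0144 in the edgeR fit with 2 libraries a group), past the threshold together with 2.94% of the 12541 genes tested there. An antisense transcript, Gm29233, overlaps 208 bases of Thbs1 exons and shares 1.89% of its 50-base words, and whether counting used strand is not given in the sources used here. Thus a small part of the Thbs1 counts cannot be assigned with certainty.

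Thbs2 (ENSMUSG00000023885) encodes thrombospondin 2, the other trimeric member, known from collagen fibril assembly and as an inhibitor of angiogenesis. It lies on the minus strand of chromosome 17, from 14665500 to 14694235, with 21 merged exons of 7003 bases. It was counted 158, 88 and 98 in control replicates 1 to 3 and 49, 179 and 113 in Slit2th replicates 1 to 3, or 50.6, 57.0 and 55.7 CPM and 43.2, 85.4 and 63.8 CPM. The groups overlapped, with Slit2th replicate 1 the lowest of the 6 libraries and Slit2th replicate 2 the highest. The mean was 54.5 ± 3.40 CPM in controls and 64.1 ± 21.1 CPM in Slit2th (SD, n = 3 each). Thbs2 differed by 0.24 on the log2 scale (standard error 0.37, 95% interval -0.58 to 1.07, adjusted p = 0.801 by edgeR's quasi-likelihood test), and the exact permutation test gave p = 0.70. The sign depended on 1 library, since without Slit2th replicate 2 the log2 fold change was -0.058.

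Among the pentameric members, only Thbs4 was counted above the floor in every library. Thbs4 (ENSMUSG00000021702) lies on the minus strand of chromosome 13, from 92751590 to 92794818, with 22 merged exons of 3289 bases. It was counted 139, 94 and 53 in control replicates 1 to 3 and 47, 194 and 153 in Slit2th replicates 1 to 3, or 44.5, 60.9 and 30.1 CPM and 41.5, 92.6 and 86.4 CPM. Slit2th replicates 2 and 3 lay above every control library, and Slit2th replicate 1 lay within the control range. The mean was 45.2 ± 15.4 CPM in controls and 73.5 ± 27.9 CPM in Slit2th (SD, n = 3 each), and the log2 difference was 0.71 (standard error 0.44, 95% interval -0.28 to 1.69, adjusted p = 0.545 by edgeR's quasi-likelihood test). The exact permutation test gave p = 0.30. The log2 difference of Thbs4 was 0.41 without Slit2fl/fl replicate 3 and 0.46 without Slit2th replicate 2.

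Thbs3 (ENSMUSG00000028047, plus strand of chromosome 3, 89215180 to 89226837), whose protein is known from bone growth, was almost not counted. It had 6, 0 and 0 counts in control replicates 1 to 3 and 0, 0 and 2 in Slit2th replicates 1 to 3. Mtx1, a gene on the opposite strand, overlaps 318 bases of Thbs3 exons, and had 110 counts in Slit2fl/fl replicate 1 and 8 to 17 in the other 5 libraries. Thus the library with the most Thbs3 counts was also the library with the most Mtx1 counts, and the part of Mtx1 reads in the Thbs3 counts was not tested. Comp (ENSMUSG00000031849, plus strand of chromosome 8, 70373558 to 70382066) had 1 count in Slit2fl/fl replicate 1, 1 count in Slit2th replicate 2 and 0 counts in the other 4 libraries. For both genes, 5 of the 6 libraries or more lay under the floor of 3 counts, so a difference between genotypes was not detectable at this depth.

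Cd47 (ENSMUSG00000055447) lies on the plus strand of chromosome 16, from 49800533 to 49915010, with 19 merged exons of 6276 bases. It was counted 182, 175 and 153 in control replicates 1 to 3 and 125, 225 and 199 in Slit2th replicates 1 to 3, or 58.3, 113.4 and 87.0 CPM and 110.3, 107.3 and 112.3 CPM. The 3 Slit2th libraries were nearly equal, and Slit2fl/fl replicate 2 lay just above them. The mean Cd47 level was 86.2 ± 27.6 CPM in controls and 110.0 ± 2.5 CPM in Slit2th (SD, n = 3 each), and the log2 difference was 0.35 (standard error 0.35, 95% interval -0.44 to 1.15, adjusted p = 0.688 by edgeR's quasi-likelihood test). The exact permutation test gave p = 0.40. Without Slit2fl/fl replicate 1 the log2 fold change of Cd47 was 0.13, and without Slit2fl/fl replicate 2 it was 0.60.

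**Figure D2:**
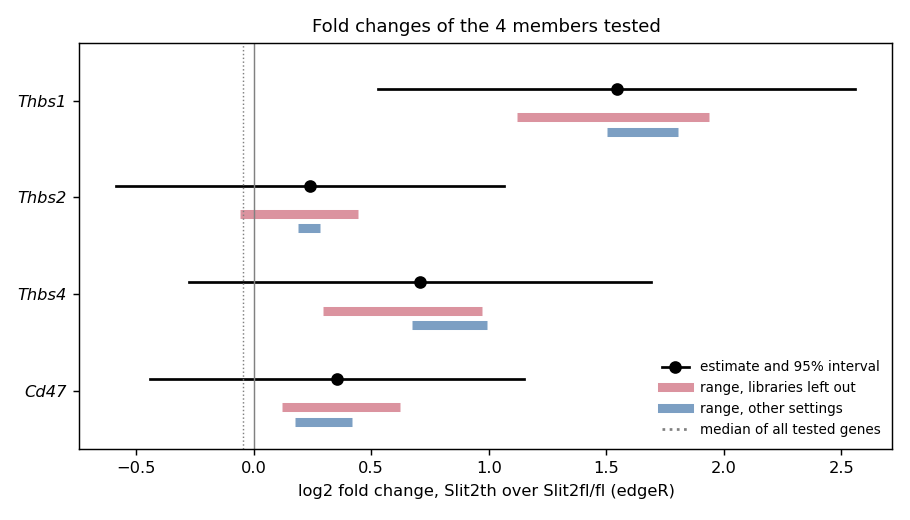
Log2 fold changes (Slit2th over Slit2fl/fl) of the 4 genes tested, with black points and lines for the edgeR estimate and its 95% interval. Red bars span the values with libraries left out, blue bars those under other settings, and the dotted line is the median of all tested genes. The interval of Thbs1 (0.53 to 2.56) lies above 0, and those of Thbs2, Thbs4 and Cd47 include 0.

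The promoter windows of the members were read from RefSeq (GRCm38.p6), and only entries on the chromosome of the gene were used. Such entries were present for 4 of the 6 symbols (Thbs2, Thbs3, Thbs4 and Cd47). Each window holds 250 bases before and 50 after a transcription start. The 3 thrombospondin windows are printed because they set the 2 genes counted in every library beside the gene that was at or near 0. They are written 5' to 3' on the strand of the gene, with capitals at matches on either strand of the TATA box TATAAA, the CCAAT box, the Sp1-type GC box GGGCGG and the TEAD-type element GGAATG.
Thbs2 promoter, chr17:14694213-14694512, minus strand: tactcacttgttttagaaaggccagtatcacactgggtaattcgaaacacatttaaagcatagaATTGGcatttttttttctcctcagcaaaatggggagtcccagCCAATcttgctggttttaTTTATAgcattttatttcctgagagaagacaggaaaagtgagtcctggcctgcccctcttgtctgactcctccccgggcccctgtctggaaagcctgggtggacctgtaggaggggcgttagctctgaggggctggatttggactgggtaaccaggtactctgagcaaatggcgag
Thbs4 promoter, chr13:92794769-92795068, minus strand: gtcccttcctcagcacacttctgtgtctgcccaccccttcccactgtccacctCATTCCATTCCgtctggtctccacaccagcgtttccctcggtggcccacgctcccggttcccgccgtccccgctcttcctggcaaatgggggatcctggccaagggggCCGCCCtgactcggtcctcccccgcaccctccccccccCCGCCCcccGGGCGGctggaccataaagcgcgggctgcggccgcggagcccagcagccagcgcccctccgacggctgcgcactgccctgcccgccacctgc
Thbs3 promoter, chr3:89214930-89215229, plus strand: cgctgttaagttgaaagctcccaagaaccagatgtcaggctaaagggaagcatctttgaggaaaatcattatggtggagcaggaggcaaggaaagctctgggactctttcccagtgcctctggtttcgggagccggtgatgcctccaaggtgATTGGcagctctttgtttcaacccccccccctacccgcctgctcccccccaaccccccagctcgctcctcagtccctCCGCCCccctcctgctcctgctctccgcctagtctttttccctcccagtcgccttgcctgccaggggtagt

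The Thbs2 window has a GC content of 48.3% and 4 CG dinucleotides, with 2 matches of CCAAT and 1 of TATAAA. The Thbs4 window has a GC content of 72.0% and 24 CG dinucleotides, with 3 matches of GGGCGG and 2 of GGAATG that overlap in the run of capitals. The Thbs3 window lies between them, with a GC content of 59.0%, 8 CG dinucleotides and 1 match each of CCAAT and GGGCGG. The Cd47 window (chr16:49855404-49855703) has a GC content of 74.0%, 35 CG dinucleotides and 3 matches of GGGCGG. Another, overlapping Cd47 window (chr16:49855411-49855710) has a GC content of 74.3%, 36 CG dinucleotides and 3 matches of GGGCGG. The median over 32851 RefSeq windows of this length was a GC content of 52.7% and 7 CG dinucleotides. TATAAA was present in 13.6% of these windows, CCAAT in 37.4%, GGGCGG in 35.7% and GGAATG in 14.7%. The AP-1 motif TGANTCA (7.81% of windows), the E-box CACGTG (7.15%) and the CArG box (1.63%) had no match in any window of these 4 genes. A match here describes letters only and is not a measured binding site.

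Levels were compared between genes per kilobase of merged exon. In controls the mean levels were 13.7 ± 4.68 CPM per kb for Thbs4, 13.7 ± 4.40 for Cd47, 10.7 ± 5.55 for Thbs1 and 7.78 ± 0.486 for Thbs2 (SD, n = 3). The Thbs1 range overlapped those of the other three, whereas every library's Thbs2 level lay below every level of Thbs4 and Cd47. In Slit2th the order was Thbs1 at 31.3 ± 2.01, Thbs4 at 22.3 ± 8.48, Cd47 at 17.5 ± 0.398 and Thbs2 at 9.16 ± 3.01 CPM per kb (SD, n = 3). There Thbs1 lay above all others in every library, Thbs4 and Cd47 overlapped, and Thbs2 was again the lowest. The Cd47 value per length rests on a merged model that starts well upstream of the RefSeq start of its promoter window, so it may be understated.

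The sum of the 5 thrombospondin genes was 26.0, 42.4 and 28.9 CPM per kb in control replicates 1 to 3 and 52.2, 71.4 and 65.1 CPM per kb in Slit2th replicates 1 to 3. The groups did not overlap (exact permutation p = 0.10, the smallest possible). Thbs1 made up 18.2, 37.0 and 40.8% of this sum in controls and 64.0, 43.3 and 45.3% in Slit2th. These shares did not overlap either, although Slit2fl/fl replicate 3 and Slit2th replicate 2 lay only a few points apart. Thbs2 made up 27.8, 19.2 and 27.5% in controls and 11.8, 17.1 and 14.0% in Slit2th, again without overlap (exact permutation p = 0.10 for each share). The Thbs2 level itself overlapped between the groups, so its lower share went with the higher sum. Thbs4 made up 31.7 to 52.0% in controls and 24.2 to 40.4% in Slit2th, which overlapped (exact permutation p = 0.40).

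**Figure D3:**
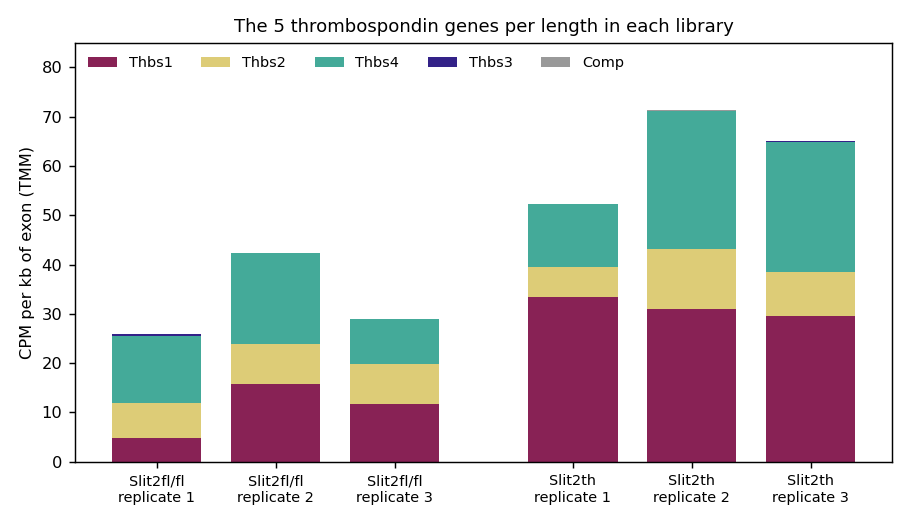
CPM per kb of merged exon (vertical axis, from 0) of the 5 thrombospondin genes, stacked in each of the 6 libraries. The total is 26.0 to 42.4 in Slit2fl/fl and 52.2 to 71.4 in Slit2th, Thbs1 is the largest block in each Slit2th library, and Thbs3 and Comp are barely visible.

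A ratio of 2 genes within a library does not depend on how libraries are scaled, so Thbs1 was set against each other member with at least 10 counts in every library. The ratio of Thbs1 to Thbs2 counts was 0.570, 1.67 and 1.29 in control replicates 1 to 3 and 4.69, 2.20 and 2.81 in Slit2th replicates 1 to 3. It was higher in every Slit2th library than in any control, by 1.52 on the log2 scale, or 2.87-fold (exact permutation p = 0.10, 0.15 after adjustment over the 3 ratios). The ratio of Thbs1 to Cd47 was 0.495, 0.840 and 0.824 in controls and 1.84, 1.75 and 1.59 in Slit2th. Thus Thbs1 had fewer counts than Cd47 in all controls and more in all Slit2th libraries, a difference of 1.30 on the log2 scale (exact permutation p = 0.10, 0.15 after adjustment). The ratio of Thbs1 to Thbs4 was 0.647, 1.56 and 2.38 in controls and 4.89, 2.03 and 2.07 in Slit2th, with overlap between the groups. Its difference was 1.03 on the log2 scale (exact permutation p = 0.30, also 0.30 after adjustment), so a change of Thbs1 relative to Thbs4 was not separated from the spread between libraries.

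**Figure D4:**
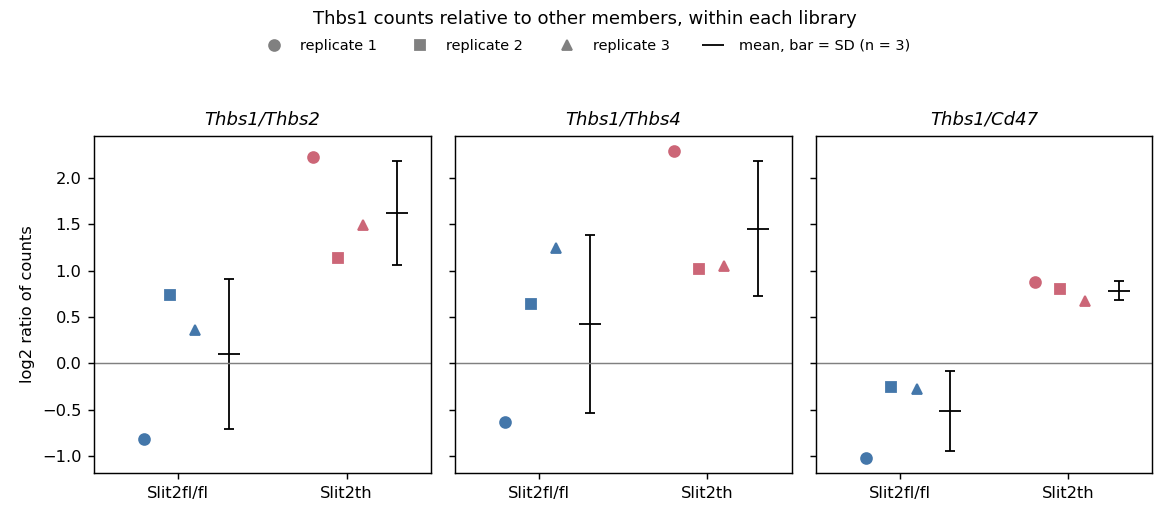
Log2 ratio of Thbs1 counts to Thbs2, Thbs4 and Cd47 counts within each library (vertical axis, shared), with a marker shape for each replicate and black bars for the mean ± SD (n = 3). The groups are apart for Thbs2 and Cd47, while for Thbs4 Slit2fl/fl replicate 3 lies above Slit2th replicates 2 and 3.

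Genes that act with the thrombospondins were then examined as lists of receptors, Cd47 partners, TGF-beta genes, matrix partners and other type 1 repeat proteins. In none of the lists did a gene pass the adjusted threshold in the edgeR fit, as was true of the whole table, where 1309 genes had an unadjusted p under 0.05. Of all 12152 tested genes, the groups did not overlap for 1062 with Slit2th higher (8.74%) and for 1181 with Slit2th lower. In the order named, the lists held 1, 1, 4, 2 and 2 such genes with Slit2th higher, and 1, 1, 0, 0 and 0 with Slit2th lower. Of 21 thrombospondin receptors and surface partners, 17 were tested, 7 with positive and 10 with negative log2 fold changes, and the median was -0.20. Only 1 had an unadjusted p under 0.05, Cd36, the scavenger receptor that binds the type 1 repeats of Thbs1 and Thbs2. It was at 16.0, 23.3 and 26.2 CPM in control replicates 1 to 3 and 105.9, 42.5 and 64.3 CPM in Slit2th replicates 1 to 3, without overlap. Its log2 fold change was 1.70 (standard error 0.45, unadjusted p = 0.00407, adjusted p = 0.422 in the edgeR fit). Without replicate 1 of both groups the Cd36 value was 1.09 (adjusted p = 0.0817 in the edgeR fit with 2 libraries a group). Itgb1, an integrin chain used by many matrix receptors, lay lower in every Slit2th library (305.3 to 309.9 CPM) than in any control (393.4 to 513.3 CPM), with a log2 fold change of -0.61 that had an unadjusted edgeR p of 0.0742. Itgb3, the integrin chain of the vitronectin receptor, had a log2 fold change of -1.96, with at most 20 counts in a library, and it was -1.26 without Slit2fl/fl replicate 1 and -3.34 without Slit2th replicate 2. Ptprj, a receptor phosphatase to which Thbs1 binds, had a log2 fold change of 0.74, which was 0.48 without Slit2fl/fl replicate 3. Cacna2d1, which encodes alpha2delta-1 and was named after its values were seen, was at 22.1 to 35.7 CPM in controls and 31.8 to 50.6 CPM in Slit2th, with a log2 fold change of 0.49 and overlap between the groups. The other alpha2delta subunits of the list, Cacna2d2 and Cacna2d3, were at 0 counts in all libraries.

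Of 8 Cd47 partners and effectors, 7 were tested, 3 with positive and 4 with negative values, and the median log2 fold change was -0.038. Sirpa, the receptor that Cd47 engages on phagocytes and neurons, was at 20.8, 15.6 and 17.1 CPM in controls and 30.0, 27.2 and 35.6 CPM in Slit2th. Its groups did not overlap, and its log2 fold change was 0.79 (standard error 0.37, adjusted p = 0.473 in the edgeR fit). Qpctl, the enzyme that modifies the amino terminus of Cd47 for binding to Sirpa, lay lower in Slit2th by a log2 fold change of -1.68 (SE 0.62, adjusted p = 0.429 in the edgeR fit) and was the 1 gene of this list with an unadjusted p under 0.05. Its groups did not overlap, with 15.4, 7.78 and 20.5 CPM in controls and 4.41, 1.91 and 7.34 CPM in Slit2th. Without replicate 1 of both groups Sirpa was at 0.92 and Qpctl at -1.66 (adjusted p = 0.190 and 0.216 in the edgeR fit with 2 libraries a group). Gnai2, an inhibitory G protein subunit that couples to Cd47, had a log2 fold change of -0.78, which was 0.11 without Slit2fl/fl replicate 1. Ptpn11, a phosphatase recruited by Sirpa, had 0.57, which was -0.016 without Slit2th replicate 1.

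All 15 genes of TGF-beta activation and response were tested, 10 with positive and 5 with negative values, and the median was 0.20. Ccn2 (connective tissue growth factor), a matricellular protein with a type 1 repeat that responds to TGF-beta, was at 7.05, 16.2 and 8.53 CPM in controls and 30.0, 37.2 and 40.6 CPM in Slit2th, without overlap. Its log2 fold change was 1.78 (standard error 0.45, unadjusted p = 0.00318, adjusted p = 0.422 in the edgeR fit), which became 1.65 once replicate 1 of each group was left out (adjusted p = 0.0324 in the edgeR fit with 2 libraries a group). The ligand Tgfb2 had a log2 fold change of 0.61 and the receptor Tgfbr2 of 0.53, both with unadjusted edgeR p above the threshold. Neither overlapped between the groups, with 52.5 to 78.5 CPM in controls and 88.3 to 121.3 CPM in Slit2th for Tgfb2, and 69.4 to 86.4 and 94.4 to 127.6 CPM for Tgfbr2. The 5 genes with negative values were Smad7 (-1.15), the ligand Tgfb1 (-0.97, with at most 9 counts in a library), Ltbp4 (-0.80), Ltbp1 (-0.61) and Tgfb3 (-0.32). None of these 5 had an unadjusted edgeR p under 0.05. Smad7 and Ltbp4 stood highest in Slit2fl/fl replicate 1 (29.1 and 44.2 CPM).

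Of 23 matrix, growth factor and protease partners, 13 were tested, 9 with positive and 4 with negative values, and none had an unadjusted edgeR p under 0.05. The median log2 fold change was 0.42, with 0.81 for Fn1 (fibronectin), 0.63 for Dcn (decorin), 0.60 for Fgf2 and 0.58 for Col5a1. Without Slit2fl/fl replicate 1 Fn1 was at 0.51, Dcn at 0.41 and Fgf2 at 0.36, and without Slit2fl/fl replicate 3 Col5a1 was at 0.34. Of 18 other type 1 repeat proteins and O-fucose enzymes, 8 were tested, 7 with positive values and 1 with a negative value, and the median was 0.43. Spon1 (F-spondin), an adhesion protein with thrombospondin type 1 repeats, was at 41.0, 48.0 and 61.4 CPM in controls and 124.4, 87.8 and 77.3 CPM in Slit2th, without overlap. Its log2 fold change was 0.94 (standard error 0.36, adjusted p = 0.429 in the edgeR fit), with an unadjusted p under 0.05. Without replicate 1 of both groups the Spon1 value was 0.58 (adjusted p = 0.236 in the edgeR fit with 2 libraries a group). Thsd7a had 0.70, Ccn3 0.48 and Ccn1 -1.02, none with an unadjusted edgeR p under 0.05. Ccn1, the 1 gene with a negative value, stood highest in Slit2fl/fl replicate 1 (90.9 CPM, against 27.9 and 31.8 CPM for the other controls), and without that library its log2 fold change was -0.26. Without the same library Thsd7a was at 0.42 and Ccn3 at 0.19, and without Slit2th replicate 2 Ccn3 was at 0.23.

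**Figure D5:**
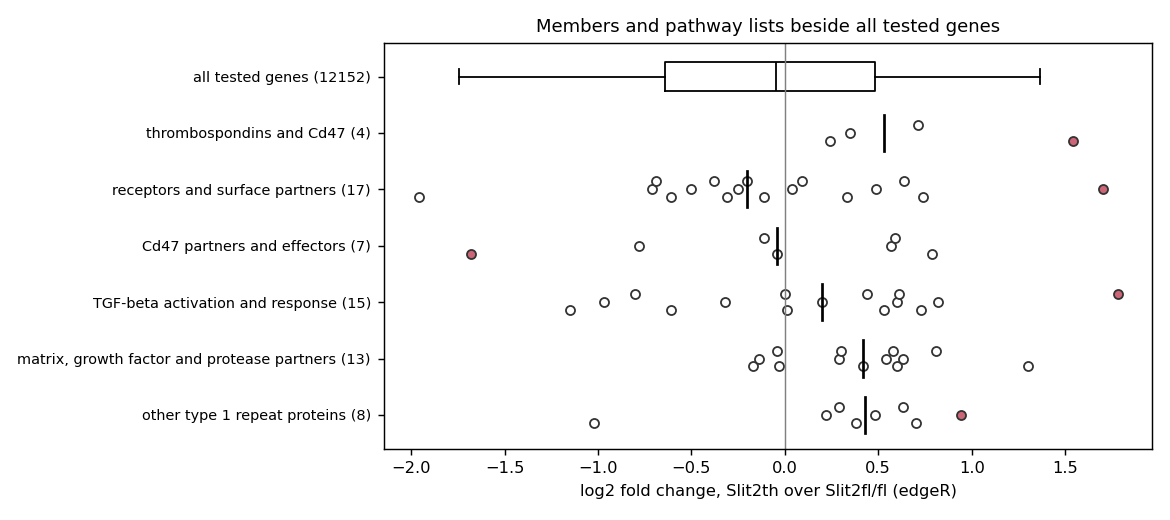
Log2 fold changes (horizontal axis, Slit2th over Slit2fl/fl) of the tested members and pathway genes, one circle a gene and the number tested in brackets, filled where the unadjusted edgeR p was under 0.05. Black ticks are list medians, and the box gives the quartiles and the 5th to 95th percentile of the 12152 tested genes. Thbs1, Cd36, Ccn2 and Spon1 are the filled circles on the right, and Qpctl is the one on the left.

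Thrombospondins are also made by cells other than neurons, so marker genes of such cells were read in the same libraries. Their part in the Thbs1 difference was not tested. Fibroblast markers summed to 2619 to 3538 CPM in controls and 3515 to 4988 CPM in Slit2th, with 10 of 12 tested markers positive and a median log2 fold change of 0.59. At an unadjusted edgeR p under 0.05, 3 of the 12 were higher in Slit2th, against 3.99% of all tested genes. Their log2 fold changes were 2.19 for Lum, 1.14 for Col3a1 and 1.07 for Pdgfra, and that of Lum was larger than that of Thbs1. Lum, named here after its values were seen, stood at 16.3 to 72.6 CPM in controls and 185.6 to 269.8 CPM in Slit2th, without overlap, as in Thbs1. Col1a2 and Dcn, the most abundant of the fibroblast markers, had smaller log2 fold changes of 0.42 and 0.63. Their unadjusted edgeR p was 0.241 and 0.132. The 2 tested fibroblast markers with negative values were Thy1 (-1.13) and Mfap5 (-0.64). Macrophage markers summed to 135.9 to 274.4 CPM in controls and 212.8 to 826.9 CPM in Slit2th, with the highest value in Slit2th replicate 1, and 10 of 11 were positive with a median of 2.15. At an unadjusted edgeR p under 0.05, 6 of the 11 were higher in Slit2th, against the same 3.99%. For 5 of the 11 the groups did not overlap, with Slit2th higher, against 8.74% of tested genes. Among the macrophage markers, Mertk and Lyz2 were the most abundant, with log2 fold changes of -0.02 and 2.15. Mertk was the 1 tested marker of this list with a negative value. Aif1, not tested and named after its values were seen, stood at 181.8 CPM in Slit2th replicate 1. It was at 0.640 CPM or less in every other library. Without Slit2th replicate 1, the log2 fold change of Thbs1 was 1.48, and that of the macrophage median was 1.06.

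Of the 5 platelet markers in the table, only Pf4, a chemokine that macrophages also make, was counted above 1.60 CPM in any library, with 1.30 to 7.69 CPM in controls and 9.07 to 93.6 CPM in Slit2th. Markers of red blood cells summed to at most 1.30 CPM. Proliferation markers summed to 290.8 to 370.1 CPM in controls and 122.7 to 227.5 CPM in Slit2th, without overlap. Of the 11 tested Schwann cell and glial markers, 7 had negative values, and the median log2 fold change was -0.32. Endothelial markers summed to 43.2 to 132.9 and 49.6 to 57.4 CPM, and smooth muscle and pericyte markers to 17.6 to 97.7 and 15.9 to 39.5 CPM, in controls and Slit2th. Of the cartilage markers, Col2a1 and Hapln1 were at 0 and Sox9 was at 16.0 to 72.6 and 67.1 to 141.1 CPM. Of the tendon markers, Scx was at 0 and the sum was at most 2.27 CPM, beside the near absence of Comp.

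Genes whose log2 CPM followed that of Thbs1 most closely over the 6 libraries, among 5574 tested genes with a mean of at least 20 CPM, were AI987944, Ecpas, Cdkn2aip, Ddx5 and Dync2h1, with Pearson correlations of 0.991 to 0.997. For Cd47 they were Tspan3, Bcap29, Paip1, Sec24a and Snrpb2, with correlations of 0.993 to 0.999. As in Thbs1, the lowest value of all 10 genes lay in Slit2fl/fl replicate 1. These are descriptions over 6 libraries that share genotype, depth and the position of replicate 1, and the genes were the closest of many.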

How the data were processed

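RNA was sequenced from 6 libraries, 3 Slit2fl/fl and 3 Slit2th, grouped by the labels. The authors aligned reads with HISAT2 and deposited raw counts as whole numbers, without normalization, for 20173 genes. The study's methods name the mm10 genome and the submitters' processing notes GRCm39. The counting program and strand setting are not given in the sources used here. No coordinates are in the table, so positions and exon lengths come from GENCODE M21 (GRCm38), in which 20159 identifiers were found.

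Counts were fitted over the whole table in R 4.3.3 with edgeR 4.0.16 (TMM, genes with at least 1 CPM in at least 3 libraries or, with a library left out, in as many as the smaller group holds, quasi-likelihood test, no covariates, Benjamini-Hochberg over all 12152 tested genes, threshold 0.05). The biological coefficient of variation was 50.4%. Single levels, log2(CPM + 1), and ratios were tested by exact permutation, two-sided, which cannot go below 0.10. The median log2 fold change of all tested genes was -0.047. Depth was 1255939 to 3155406 counts, which limits precision for genes near 3 counts.

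Alternatives were other normalizations, filters and tests (DESeq2 1.42.0, limma 3.58.1), length and GC offsets, a replicate block and the removal of libraries. Genes named were the members, Slit2, up to 4 genes with the smallest p of each pathway list, at most 2 of the most abundant genes and absent defining markers of each marker list, and the 5 genes most correlated with Thbs1 and with Cd47. Members and lists were chosen with earlier results of these data known. Some further list and marker genes were named after their values were seen. Some marker genes were not analysed here, and a few others covered by this rule are left unreported.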

Additional observations from a re-analysis of the deposited data

How the results depend on the processing

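Over 23 alternative settings, the log2 fold change of Thbs1 was positive throughout, at 1.12 to 1.94, with adjusted p of 0.0144 to 0.790, and it passed the threshold in 1 of them, without replicate 1 of both groups (1.12). Values with libraries left out were 1.12 to 1.94 for Thbs1, -0.058 to 0.44 for Thbs2, 0.29 to 0.97 for Thbs4 and 0.12 to 0.62 for Cd47. Thbs2 turned negative without Slit2th replicate 2 (log2 fold change -0.058, difference of mean log2 CPM -0.049, which otherwise reached 0.43). With single libraries left out, Gnai2 was at -1.22 to 0.11, positive without Slit2fl/fl replicate 1, and Ptpn11 at -0.016 to 0.83, negative without Slit2th replicate 1. The number of genes past the threshold was 0, but 7 of 17358 with no filter, 34 with DESeq2 and 17 with edgeR's exact test. It was 0 to 369 with libraries left out, 1 without Slit2fl/fl replicate 1 and 369 without replicate 1 of both groups. The cause was not tested.

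Same-numbered libraries deviated together at correlations of 0.292, 0.245 and 0.0808. Differently numbered ones were at -0.312 to 0.255, the highest between Slit2fl/fl replicate 2 and Slit2th replicate 3. Slit2fl/fl replicate 1 was at -0.219 and -0.248 with Slit2th replicates 2 and 3. These values do not settle whether the numbers mark pairs, and the main fit did not take the numbers as pairs. With the replicate block, 0 genes passed (1614 at an unadjusted p under 0.05), and the log2 fold change was 1.69 for Thbs1, 0.19 for Thbs2, 0.67 for Thbs4 and 0.40 for Cd47. In the pair with the smallest difference, the log2 ratio of Thbs1 to Thbs4 differed by -0.20. Thbs3 and Comp have no fitted value. At these depths a level under 0.961 to 2.65 CPM was not separable from 0.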
